A study of Homo sapiens with 2 samples.

Results

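Chromosome 20 carried 209 of the 6754 SRSF1 crosslink sites listed for H1299 cells, and 167 of those 209 were truncation sites. The chromosome was chosen by its share of truncation sites in this same list, so that share is described below and no test is made of it. All sites on chromosome 20 of the hg19 build were taken, with the arms divided at 27.5 Mb. The study made 2 HITS-CLIP libraries, numbered as replicates 1 and 2, from the established lung carcinoma cell line H1299, and the labels name no treatment, genotype or control library. The authors deposited 1 list of sites for both libraries, with no column for either, so no value here has a replicate spread and none was tested between samples. Every interval given is an exact 95% Clopper-Pearson interval of a share unless named otherwise, treats sites as independent and covers counting error only. Total tags per library are unknown, so a stretch without sites cannot be told from a stretch with few tags.

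SRSF1 belongs to the SR proteins, which hold RNA-recognition domains and a tail rich in arginine and serine. It binds purine-rich stretches of pre-mRNA and is best known for recruiting the splicing machinery to exons, and it also acts in export, translation and decay of mRNA. In HITS-CLIP, ultraviolet light joins a protein to the RNA it touches, and the RNA tags recovered with the protein are reverse transcribed. The enzyme can stop at the crosslinked base, which leaves a truncation site, or read through it with an error, which leaves a mutation site. Each site is a 21-nt interval. For truncation sites the list gives PH, read here as tags truncated at the site, with PH0, the number expected at any position of the tag cluster, and P. For mutation sites it gives k, read as coverage in tags, and m, read as mutated tags among them. These readings of PH, PH0, k and m follow the naming of the CTK toolkit and are not stated in the labels. Genes, exons and sequence at these positions were not analysed here, because the annotation used is of another build than the list. Sites are therefore named by position, 1-based in hg19, and no sequence is printed.

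Truncation sites made up 79.9% of the sites on chromosome 20 (73.8 to 85.1%), against 69.6% of 6306 sites on the other 21 autosomes (68.5 to 70.8%). The difference was 10.3 percentage points (Newcombe 95% interval 4.23 to 15.3). Because the chromosome was chosen for a high share, this difference tends to be overstated and its interval cannot serve as a test. The shares of the other autosomes ran from 58.1% on chromosome 18 to 73.6% on chromosome 22, with a median of 69.5%, so chromosome 20 lay above all 21. The next autosomes were chromosome 22, at 73.6% (65.6 to 80.6%), and chromosome 16, at 73.4% (68.2 to 78.2%), whose intervals overlap that of chromosome 20. Both strands of chromosome 20 gave nearly the same share, with 93 of 117 sites on the plus strand (79.5%, 71.0 to 86.4%) and 74 of 92 on the minus strand (80.4%, 70.9 to 88.0%). Plus minus minus strand was -0.948 percentage points (Newcombe 95% interval -11.6 to 10.3).

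**Figure D1:**
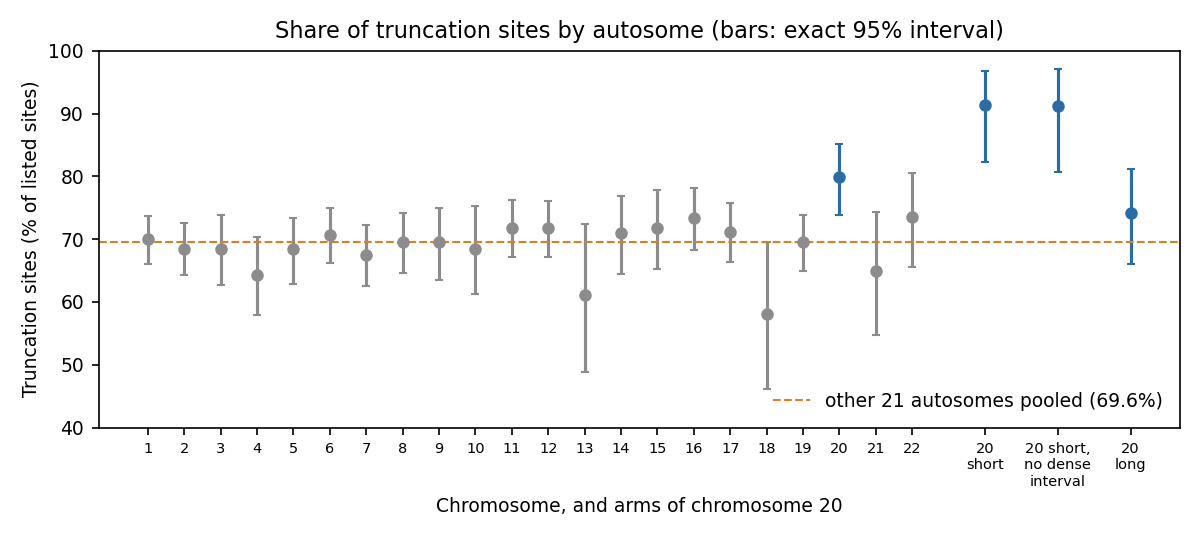
Share of truncation sites among the listed sites (y axis, percent, starting at 40) for each autosome, and for the arms of chromosome 20 with and without the dense interval. Points are shares, bars exact 95% intervals; chromosome 20 stands at 79.9%, its short arm at 91.4% and its long arm at 74.1%, and the dashed line marks 69.6% over the other autosomes.

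Relative to coding genes, truncation sites were many and mutation sites few on chromosome 20. Per 100 protein-coding genes, of which GENCODE v29 counts 543 on this chromosome, there were 30.8 truncation sites and 7.73 mutation sites. The other autosomes ran from 13.7 to 38.1 truncation sites (median 24.0) and from 7.68 to 16.7 mutation sites (median 10.2) per 100 coding genes. Only chromosome 8 had more truncation sites per coding gene, and only chromosome 10 had fewer mutation sites. A second scale comes from the list itself. Each name carries a running number that never fell along a strand for either kind (0 decreases). The last number on each strand is thus the least count of numbers given out there. For truncation sites the number is that of the tag cluster, and 1 cluster can give several sites, here 167 sites from 157 clusters. Mutation sites made up 2.56 per 100 of at least 1640 numbers on chromosome 20, below the range of the other autosomes (2.66 to 5.09, median 3.96). Truncation sites came to 0.992 per 100 of at least 16840 cluster numbers, a rate of sites per cluster and not a share of candidates. That rate was inside the range of 0.548 to 1.13, and 5 autosomes were higher. The number of tags on each chromosome is not known, and these rates are built from the same counts that chose the chromosome.

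The share was higher on the short arm. There, 64 of 70 sites were truncation sites (91.4%, 82.3 to 96.8%), whereas on the long arm 103 of 139 were (74.1%, 66.0 to 81.2%). The short arm exceeded the long arm by 17.3 percentage points (Newcombe 95% interval 6.27 to 26.4). The other autosomes were not divided into arms, so whether a gap of this size is usual is not known. The long arm exceeded the other autosomes by 4.48 points (Newcombe 95% interval -3.46 to 11.1). Both arms are parts of the share the chromosome was chosen on, so these intervals are descriptions and cannot serve as tests. Each arm looked alike on both strands: the short arm had 27 of 29 sites on the plus strand (93.1%) and 37 of 41 on the minus strand (90.2%), and the long arm had 66 of 88 (75%) and 37 of 51 (72.5%). The arm boundary fell in a stretch of 3.68 Mb without sites. No hg19 sequence was used here, so whether tags could be placed in that stretch was not examined. The last site of the short arm, at 26190490 to 26190510, had 12 truncated tags against 1.84 expected, and the first of the long arm, at 29874644 to 29874664, had 7 against 0.21.

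The gap between the arms in percentage points changed with the sites that were counted. Of 36 long-arm mutation sites, 24 were covered by 2 to 4 tags (66.7%, 49.0 to 81.4%), against 2 of 6 on the short arm. With only mutation sites of k of at least 5, the short arm stood at 94.1% and the long arm at 89.6%, a difference of 4.55 points (-4.82 to 12.3). Like the other intervals of this gap, it describes parts of the chosen share and cannot serve as a test. With truncation sites of PH of at least 6 and mutation sites of m of at least 3, the difference was 7.68 points (-5.24 to 18.0). With truncation sites at P of at most 1e-05 it was 29.4 points (11.1 to 43.2), from 83.8% and 54.4%. The k filter removes mutation sites alone and the P filter truncation sites alone. Each shifts both shares in 1 direction, so gaps in points under these filters are not on a like scale. The k filter also removed unlike parts of the mutation sites, 24 of 36 on the long arm and 2 of 6 on the short arm. The filter on PH and m removes sites of both kinds. Why the gap changed was not tested. The excess of the whole chromosome over the other autosomes, on which it was chosen, moved less, from 7.90 to 11.2 points over 9 alternatives.

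The running numbers can also be divided between the arms, because the last number of the short arm and the first of the long arm bracket the split. The short arm had 1.34 to 1.44 truncation sites per 100 cluster numbers and the long arm 0.831 to 0.854, where clusters with several sites raise the rate. For mutation sites the order was the reverse, with 1.28 to 2.00 per 100 numbers on the short arm and 2.69 to 3.07 on the long arm. Without the 13 sites of a dense interval near the boundary, described below, the short arm still had 1.09 to 1.17 truncation sites per 100 cluster numbers. These ranges bound where the split falls and carry no counting error, which is wide for 6 mutation sites.

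Of the 64 truncation sites of the short arm, 27 lay in its first 5 Mb and 12 in the next 5 Mb. The 6 mutation sites of the short arm lay mostly in those first 10 Mb too. From the short-arm end they lay at 1372255 to 1372275 on the minus strand (2 of 2 tags mutated), 2637440 to 2637460 on the plus strand (2 of 8), 3765915 to 3765935 on the minus strand (3 of 12) and 6638471 to 6638491 on the plus strand (2 of 8). The last were on the minus strand, at 21486014 to 21486034 (2 of 2) and 26189334 to 26189354 (3 of 25). Between the fourth and the fifth no mutation site was listed for 14.8 Mb, the longest such stretch between mutation sites of the chromosome, while 17 truncation sites with a median of 5 tags were. Stretches of 3.88, 3.49 and 3.1 Mb within it had no site of either kind. Mutation-free stretches of the other autosomes were not measured, so whether such lengths are usual is not known.

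In fixed bins of 5 Mb, the truncation sites peaked at 31 between 30 and 35 Mb and at 27 in the first 5 Mb. Mutation sites were most numerous in that same bin at 30 to 35 Mb, with 9, and in the bin at 60 to 65 Mb, with 12, together 21 of the 42. The first bin had 27 truncation and 3 mutation sites (90%, 73.5 to 97.9%) and the second had 12 and 1. The bins at 10 to 15 Mb and 15 to 20 Mb had 4 and 6 truncation sites and no mutation site. The last bin, at 60 to 65 Mb, had 18 truncation and 12 mutation sites (60.0%, 40.6 to 77.3%), the lowest share among the 9 bins of at least 10 sites.

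Another mutation-free bin, at 45 to 50 Mb, held 13 truncation sites, and its share of 100% has a lower bound of 75.3%. It lies in a mutation-free stretch of 5.68 Mb with 14 truncation sites of median 7 tags. None of the 221 bins of at least 10 sites on the other autosomes consisted of truncation sites alone; their shares ran from 33.3 to 93.8%, with quartiles of 61.3 and 78.6%. On chromosome 20, 4 of 9 such bins had a share of at least 90%, where 4.98% of the bins of the other autosomes did. One of these bins, at 25 to 30 Mb, fell from 16 to 3 sites without the dense interval. The chromosome was chosen on this quantity, so nothing further is read from that count. In blocks of 25 Mb, a size chosen after the values were seen, the share was 90.9% in the first (50 of 55 sites), 79.8% in the second (83 of 104) and 68.0% in the last (34 of 50). Over 88 blocks of at least 30 sites on the other autosomes the shares ran from 56.2 to 87.8% with a median of 68.9%. The highest of these was the block at 25 to 50 Mb of chromosome 9, with 36 of 41. The last block of chromosome 20 was near the middle of the other blocks and the first lay above all of them. The chromosome was chosen on this quantity too, so that order is a description only.

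**Figure D2:**
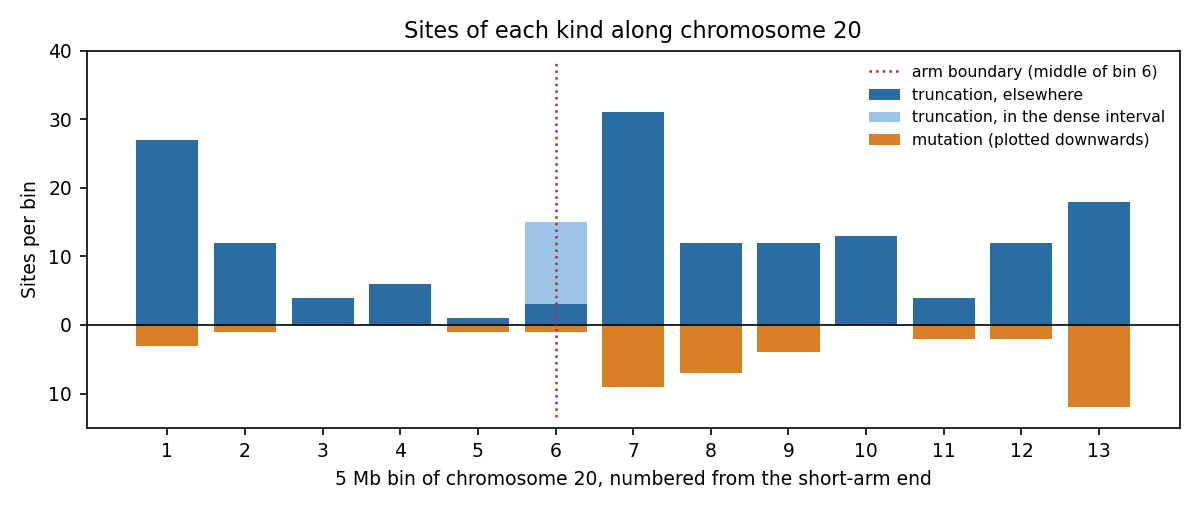
Truncation sites (upwards) and mutation sites (downwards) per 5 Mb bin of chromosome 20, numbered from the short-arm end; the pale part of bin 6 marks the dense interval and the dotted line the arm boundary. Bins 7 and 13 hold 21 of the 42 mutation sites, and bins 3, 4 and 10 hold none.

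The heights of the truncation sites, which the choice of the chromosome did not use, were close to those elsewhere. The median truncation site of chromosome 20 had 6 truncated tags (quartiles 5 and 8, range 4 to 27), and that of the other autosomes also 6 (quartiles 5 and 9, range 4 to 42). PH0 had the same median in both, 0.19 tags per position. The ratio of PH to PH0 had a median of 34.6 on chromosome 20 and 35.3 on the other autosomes, whose own medians ran from 29.2 to 40. Tall sites were a smaller part of the truncation sites than elsewhere, though the interval includes the value of the other autosomes. Of 167 sites, 26 had at least 10 truncated tags (15.6%, 10.4 to 22%), against 21.1% of the 4390 truncation sites of the other autosomes. Without the dense interval 18 of 155 did (11.6%, 7.03 to 17.7%). The other autosomes kept their own dense loci, of up to 85 sites, so this last value is not like for like with theirs. The single autosomes ran from 12.3 to 33.8% on this measure, and 3 of the other 21 were below chromosome 20. Sites of 5 tags made up 28.7% (22 to 36.2%) against 20.7% (19.5 to 21.9%), while those of 4 tags, the smallest height listed, made up 11.4% (6.99 to 17.2%) against 15.1% (14.1 to 16.2%). The lowest listed P, 1e-100, was given to 4 sites (2.40%, 0.656 to 6.02%), against 2.94% on the other autosomes.

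The arms differed in height mainly with the dense interval included. The short arm then had a median PH of 6.5 and PH0 of 0.2, with 15 of 64 sites at 10 tags or more (23.4%, 13.8 to 35.7%), and the long arm a median PH of 6 and PH0 of 0.19, with 11 of 103 (10.7%, 5.45 to 18.3%). Leaving out the dense interval brought the short arm to a median PH of 5.5, a PH0 of 0.175 and 7 of 52 tall sites (13.5%, 5.59 to 25.8%). The smallest height listed rose with PH0: no site with 4 tags had a PH0 above 0.11, none with 5 tags above 0.24 and none with 6 above 0.37. Positions of low height in deep clusters are thus missing from the list, and ratios are comparable only between sites of like PH0.

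**Figure D3:**
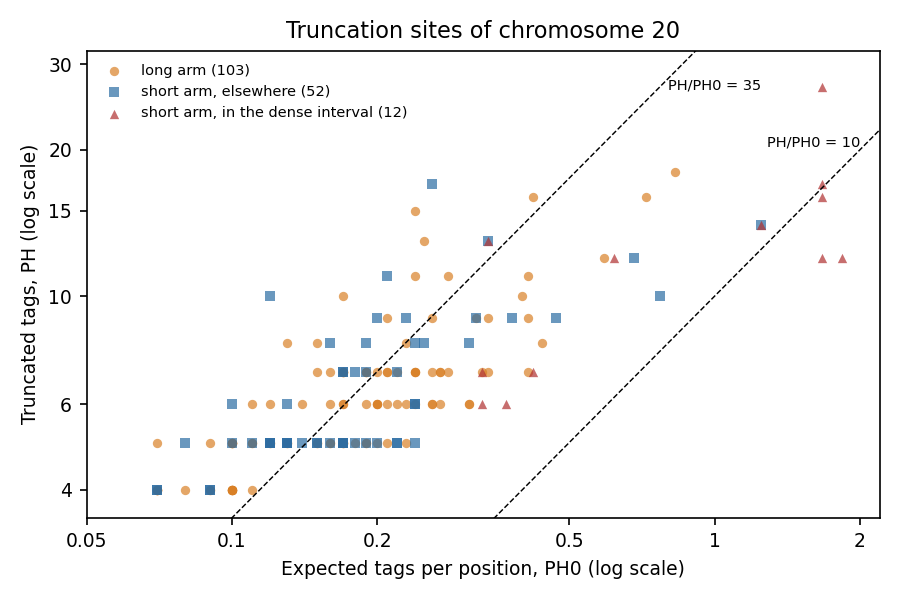
Truncated tags (y axis, log scale) against expected tags per position (x axis, log scale) of the 167 truncation sites of chromosome 20, by arm; dashed lines mark ratios of 10 and 35. The 12 sites of the dense interval reach the highest expected numbers, up to 1.84, at ratios of 6.52 to 38.2.

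The dense interval, fixed at 26187000 to 26192000 by the rule, held 13 sites, all on the minus strand between 26188860 and 26190510. It is the largest locus of the chromosome when sites of a strand at most 1000 nt apart are joined: 12 truncation sites and 1 mutation site in 1651 nt. Of 5199 loci in the whole list 9 had more sites and 2, this one included, had as many. It carried 149 of the 1191 truncated tags summed over the truncation sites of the chromosome (12.5%). Its sites were tall on a high expectation, with a median PH of 12, a median PH0 of 0.935 and a median ratio of 16.2. The treatment of reads that fit several places is not given in the sources used here, so whether these tags arose at this locus or at similar sequence elsewhere was not tested.

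Read 5′ to 3′, the dense interval opened with a site of 12 tags against 1.84 expected, at 26190490 to 26190510. Next came 4 sites of 1 tag cluster, all against 1.67 expected. They had 27 tags at 26190236 to 26190256, 12 at 26190148 to 26190168, 17 at 26190079 to 26190099 and 16 at 26189997 to 26190017. The tallest of them was the tallest truncation site of the chromosome, and its P was at the lowest listed value. Farther 3′ the expected number dropped to 0.42 and below, with 7 tags at 26189839 to 26189859, 6 at 26189446 to 26189466 and 13 at 26189336 to 26189356. The last of these stood against 0.34 expected, a ratio of 38.2. The mutation site lay 2 nt 3′ of it, at 26189334 to 26189354, with 3 of 25 covering tags mutated. The 3′ end held 12 tags at 26189155 to 26189175 (0.62 expected), 14 at 26189064 to 26189084 (1.25 expected), and 7 and 6 at 26188887 to 26188907 and 26188860 to 26188880 (0.33 expected each). The truncation sites fell in 8 tag clusters with numbers from 2007 to 2018, so 12 successive clusters had been numbered here and 4 of them gave no listed truncation site.

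**Figure D4:**
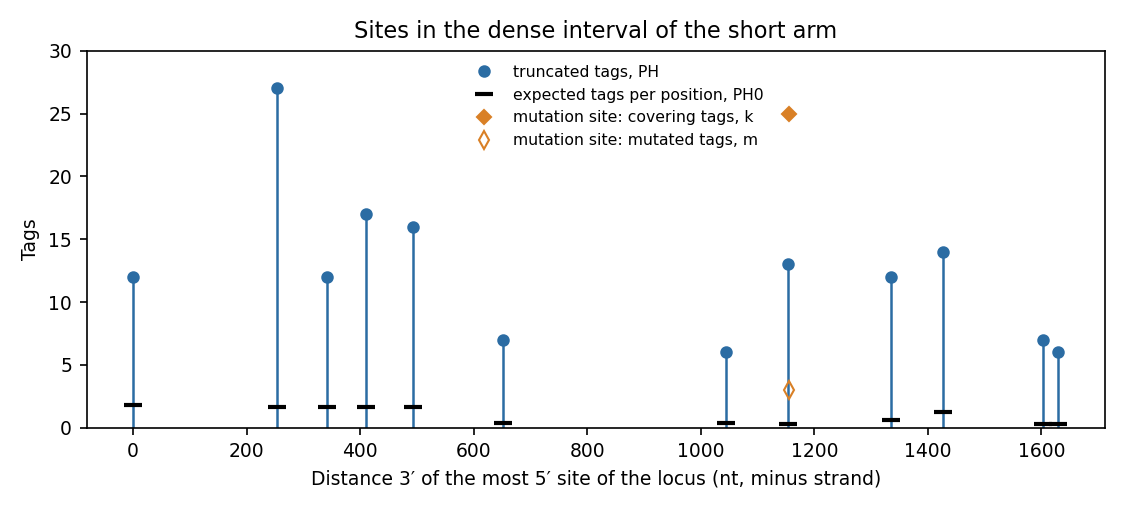
Tags (y axis) at the 13 sites of the dense interval by distance 3′ of its most 5′ site (x axis, nt); stems are truncated tags, black bars the expected tags per position, diamonds the covering and mutated tags of the mutation site. The tallest site has 27 tags at 254 nt, and the mutation site lies beside the site of 13 tags at 1154 nt.

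Leaving out the dense interval changed the composition of the chromosome little. The truncation share became 79.1% over the chromosome (155 of 196 sites, 72.7 to 84.6%) and 91.2% on the short arm (52 of 57, 80.7 to 97.1%). The short arm then exceeded the long arm by 17.1 points (Newcombe 95% interval 5.02 to 26.4).

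Outside the dense interval the tallest truncation sites stood alone or in small groups. By the naming rule, the 10 sites with most truncated tags included 4 in the interval and 6 elsewhere. The tallest of these 6 was at 47895472 to 47895492 on the plus strand, with 18 tags against 0.83 expected. A site at 47905589 to 47905609 on the same strand had 16 against 0.42 and the lowest listed P. Joined at gaps of up to 10000 nt, a setting at which further groups were picked out after their values were seen, these formed a group of 4 truncation sites over 10138 nt, with 7 to 18 tags and no mutation site. It lies in the mutation-free bin at 45 to 50 Mb.

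The site at 17992745 to 17992765 on the plus strand had 17 tags against 0.26 expected, a ratio of 65.4, and also stood at the lowest listed P. It lay inside the 14.8 Mb without mutation sites, just before a stretch of 3.49 Mb without any site. At 57465156 to 57465176 on the plus strand 15 tags stood against 0.24 expected (ratio 62.5). A second site of its tag cluster lay 237 nt 3′ with 7 tags. The site at 62904790 to 62904810, also on the plus strand and the last listed on the chromosome, had 16 tags against 0.72 expected. On the short arm a site of 14 tags at 4804730 to 4804750, minus strand, stood against 1.25 expected, a ratio of 11.2.

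The naming rule also took the 5 sites with the highest ratio, a ranking over sites of unlike PH0 that is given as a description only. It was led by a site at 2638607 to 2638627 on the plus strand, with 10 tags against 0.12 expected (83.3). It was one of 6 sites of the second largest locus, from 2637275 to 2638761, with 5 truncation sites of 5 to 12 tags and a mutation site covered by 8 tags. Its tallest site, at 2637275 to 2637295, had 12 tags against 0.68 expected. With gaps of up to 10000 nt it grew to 8 sites in 3915 nt, 7 of them truncation sites. The ranking also took sites of few tags: sites of 5 tags at 62594750 to 62594770 (minus strand, 0.07 expected) and at 1306704 to 1306724 (plus strand, 0.08 expected) had ratios of 71.4 and 62.5.

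Most sites of the chromosome were single. Joining sites at most 1000 nt apart gave 166 loci, of which 142 held 1 site (85.5%, 79.3 to 90.5%), as did 85.0% of 4871 loci of the other autosomes (84.0 to 86.0%). There were 18 pairs and 6 loci of 3 or more sites. A truncation site was present in 81.9% of the loci (75.2 to 87.5%) against 71.5% elsewhere (70.3 to 72.8%), so the share was as high when each locus was counted once. Truncation sites alone made up 125 loci, mutation sites alone 30, and 11 held both. The remaining loci of 3 sites were small. On the plus strand they lay at 30327355 to 30327567 (2 truncation sites of 5 and 7 tags and a mutation site covered by 26), at 34091174 to 34091701 (3 truncation sites of 5 and 6 tags) and at 62449040 to 62449243. The last was the one of the 6 in which mutation sites outnumbered truncation sites, with 2 covered by 17 and 13 tags beside a truncation site of 6. On the minus strand, 3765582 to 3765935 held truncation sites of 7 and 8 tags and a mutation site covered by 12.

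The 167 truncation sites came from 157 tag clusters, of which 149 (94.9%) gave 1 site, 7 gave a pair and the one in the dense interval gave 4. On the other autosomes 94.1% of 4052 clusters gave 1 site. The 10 gaps between neighbouring sites of a cluster ran from 27 to 237 nt with a median of 49 nt. Sites of a cluster share their tags' surroundings and their PH0, and are not independent of each other.

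The median coverage of mutation sites on chromosome 20 was 3 tags (quartiles 2.25 and 8, range 2 to 30), with an order-statistic 95% interval of 3 to 5, against 5 on the other autosomes (quartiles 3 and 8, range 2 to 424), whose single medians ran from 3.5 to 7. The interval thus reaches the value of the other autosomes. Among sites covered by at least 5 tags the median was 9.5 tags over 16 sites (7 to 25) against 8, a value inside that interval. With only the deepest mutation site of each locus the medians were 3 and 4 tags. Coverage by 2 to 4 tags was found at 26 of 42 sites (61.9%, 45.6 to 76.4%), against 48.6% elsewhere (46.3 to 50.9%). Sites covered by exactly 3 tags were 11 of 42 (26.2%, 13.9 to 42.0%) against 13.9% (12.4 to 15.6%), and those covered by 5 to 9 were 8 (19.0%, 8.60 to 34.1%) against 32.2% (30.1 to 34.3%). At 10 or more tags the share was the same within its interval, 8 of 42 (19.0%, 8.60 to 34.1%) against 19.3% (17.5 to 21.1%). The number of mutated tags was 2 at 31 sites, 3 at 10 and 6 at 1. All covering tags were mutated at 12 sites (28.6%, 15.7 to 44.6%), against 26.7% elsewhere (24.7 to 28.7%), and 11 of these 12 were covered by 2 tags. The median mutated share was 66.7% against 50%, and because every listed site had at least 2 mutated tags, a site covered by 2 or 3 tags cannot be below 66.7%.

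**Figure D5:**
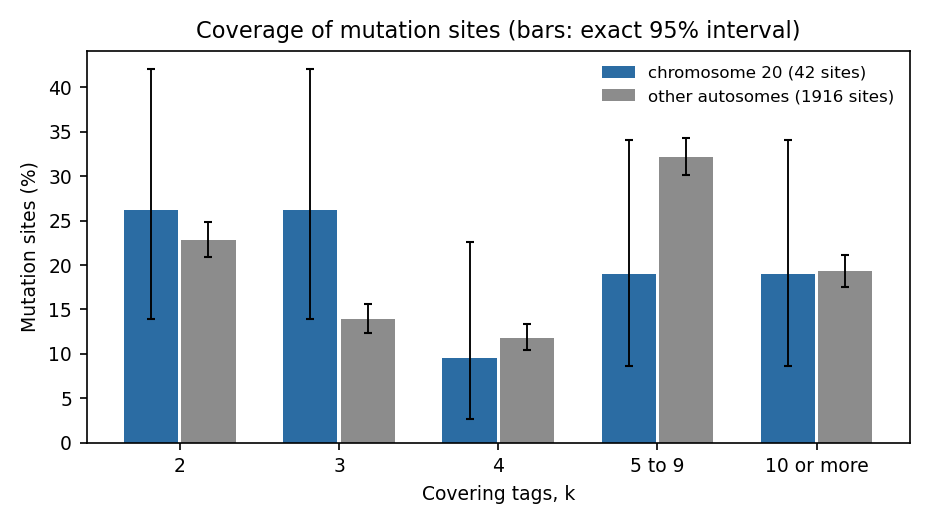
Percentage of mutation sites (y axis) by number of covering tags (x axis) on chromosome 20 (42 sites) and on the other autosomes (1916 sites); error bars are exact 95% intervals. Chromosome 20 has 26.2% at 3 tags against 13.9% and 19.0% at 5 to 9 tags against 32.2%, and 19.0% at 10 or more against 19.3%.

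Among the 10 mutation sites with most covering tags, the deepest on chromosome 20 lay far from any listed truncation site. At 56282288 to 56282308 on the minus strand 6 of 30 tags were mutated (20%), the most mutated tags on the chromosome, and the nearest truncation site of the strand was at -20802 nt, a negative offset placing the mutation site 5′ of it. At 62282302 to 62282322, also minus, 3 of 29 were (10.3%), with the nearest at -8797 nt. The next 3 by depth lay within 50 nt 3′ of a truncation site. They were 30327379 to 30327399 on the plus strand (3 of 26 tags, 24 nt 3′), 26189334 to 26189354 on the minus strand (3 of 25, 2 nt 3′) and 62449059 to 62449079 on the plus strand (3 of 17, 19 nt 3′). The site at 3765915 to 3765935 on the minus strand (3 of 12) was at -12 nt.

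Those 4 were the only mutation sites of the chromosome within 50 nt of a truncation site on their strand, 9.52% of 42 (2.66 to 22.6%), against 16.6% of 1916 on the other autosomes (15 to 18.4%). The interval includes the value of the other autosomes. Within 1000 nt the share was 28.6% (15.7 to 44.6%) against 26.5% (24.5 to 28.6%). The median coverage of these 4 was 21 tags and that of the 38 others 3, next to 23 and 4 on the other autosomes. No truncation site is listed with fewer than 4 tags and tags run 3′ from it, so coverage and nearness to a truncation site are not independent measures. The 4 remaining sites of the 10 were 62449223 to 62449243 on the plus strand (3 of 13 tags, 183 nt) and, on the minus strand, 37053937 to 37053957 (3 of 10, -65 nt), 61541282 to 61541302 (3 of 9, 579142 nt) and 50666232 to 50666252 (2 of 9, 815 nt), with the offset of each from the nearest truncation site in parentheses. By these medians, sites near a truncation site were the deeper ones, though the 2 deepest mutation sites of chromosome 20 were far from one. How often deep mutation sites of the other autosomes lie far from a truncation site is not given here.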

How the data were processed

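HITS-CLIP tags of 2 libraries of 1 group were measured. Per the submitters' processing notes, cutadapt, BWA 0.7 and the hg19 build were used, with roles not given in the sources used here. One combined list was deposited. In it the authors give raw tag counts, equal to PH or m in 6754 of 6754 lines. Nothing states the settings behind PH, PH0, P, k and m. Depth per library is unknown.

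Values were computed with Python 3.11.15, scipy 1.17.1 and statsmodels 0.14.6: counts, medians, exact Clopper-Pearson intervals, Newcombe intervals of differences, and loci by midpoint gaps of at most 1000 nt. No test was run, since the list is 1 sample. The members, bins and lists were chosen with earlier results of these data known. Sites named are the 10 with highest PH, the 5 with highest ratio and PH0, the 10 with highest k, the 5 with highest m, loci of 3 or more, the boundary sites and the interval. GENCODE v29 gave only gene numbers per chromosome. Counting was tested on simulated data. Alternatives covered thresholds, merging, arm boundary, bins, strand and gaps. Annotation and motif analyses were left out for lack of an hg19 reference.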

Additional observations from a re-analysis of the deposited data

How the results depend on the processing

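No paired analysis was possible because the 2 libraries form 1 group and share 1 column, and for the same reason neither replicate could be left out. Of 28 alternatives set out, 2 need an hg19 reference and were not run. The share of truncation sites, 79.9%, moved to 63.8% with truncation sites at P of at most 1e-05 and to 91.3% with k of at least 5, filters that remove sites of 1 kind, and to 90.1% with PH of at least 6 and m of at least 3, which removes sites of both kinds. Its excess over the other autosomes stayed between 7.90 and 11.2 points in 9 alternatives, all drawn from the sites the chromosome was chosen on. The short arm's excess of 17.3 points became 29.4 at P of at most 1e-05 and 4.55 with k of at least 5, and was 7.68 to 17.6 in the other 6. Bins without a mutation site went from 3 to 1 of 7 at 10 Mb. Median PH rose from 6 to 8 at P of at most 1e-05, and median k from 3 to 9.5 with k of at least 5, where it was 8 on the other autosomes. The loci numbered 141 to 174 over their 3 alternatives. Low counts limit the arm comparison, with 6 mutation sites on the short arm, and tags per library are unknown.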

Other observations

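A mutation site on the minus strand at 57464714 to 57464734 (2 of 2 tags mutated) lay 442 nt from the plus-strand truncation site at 57465156 to 57465176, which had 15 tags against 0.24 expected. Over the whole list, searched after the values were seen, this was the one pair of a mutation and a truncation site on opposite strands within 500 nt.

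Several groups of truncation sites on the minus strand, picked out after their values were seen, held few or no mutation sites when gaps of up to 10000 nt were joined. At 2441406 to 2450489 there were 4 truncation sites with 5 to 9 tags and no mutation site. At 17925198 to 17943525 there were 4 with 5 to 7 tags, again with none. At 34319908 to 34330146 there were 4 with 5 to 11 tags and 1 mutation site covered by 4. Long stretches without any site were 3.88 Mb from 13756742 to 17640949 and 3.68 Mb from 26190510 to 29874644. The second spans the arm boundary, and whether tags could be placed in either was not examined.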
